A study of Homo sapiens with 16 samples.

Results

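The genes described here are the 73 histone genes of the HIST1 to HIST4 clusters among the 27311 genes listed in each file, taken by symbol: every row whose name begins with HIST, a cluster number from 1 to 4 and H. The HIST1 cluster gave 56 of them, HIST2 gave 13, HIST3 gave 3 and HIST4 gave 1. By the type in their symbols, 6 belong to the linker histone H1, 18 to H2A, 20 to H2B, 14 to H3 and 15 to H4. Of these, 3 have a transcript model without a coding region: HIST1H2APS1 (H2A), HIST2H2BA and HIST2H2BC (both H2B). Their RNA was read in 16 libraries made by SmartSeq2, a method that primes on poly(A) with oligo-dT. The cells came from 4 human leukaemia or lymphoma lines: monocytic THP-1 and U937, the T cell line Jurkat, and BJAB, which derives from B cells. The THP-1 cells, control and stimulated alike, carried dCas9-KRAB, an inactive Cas9 joined to a repressor domain, while the other lines are labelled wild type. Each line gave 2 untreated control libraries and 2 libraries after 4 hours of stimulation. THP-1 received bacterial lipopolysaccharide (LPS) at 1 µg/ml and U937 received LPS at 200 ng/ml. Jurkat received anti-CD3 at 5 µg/ml with phorbol 12-myristate 13-acetate at 100 ng/ml, and BJAB received anti-IgM at 10 µg/ml with anti-CD40 at 4 µg/ml. No label says whether the 2 libraries of a group came from separate cultures, so the p-values measure only the spread between libraries, which may be technical.

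Core histones H2A, H2B, H3 and H4 form the protein spool around which DNA is wound, and H1 binds the DNA between spools. The clustered histone genes are copied many times over, lack introns for the most part and are transcribed mainly in S phase, when new DNA has to be packaged. Their messenger RNAs usually end in a conserved stem-loop bound by SLBP instead of a poly(A) tail, so an oligo-dT library captures only what carries a tail or an adenine-rich stretch.

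The 3′ sequences are shown first because the levels described below differ by orders of magnitude between genes of the same type. GENCODE 29 transcript models on GRCh38 were found for all 73 genes under the symbols of the files. For each gene the model closest in length to the one implied by the files was read. Even so, lengths could differ widely, as for HIST1H2BK (381 bases against 887 implied), HIST1H4I (1294 against 370) and HIST1H2BH (2060 against 425). For HIST1H4C they were 435 and 390. Stem-loops, adenines and unique windows thus describe the models read, which need not be those behind the TPM values. The histone stem-loop was searched on the transcript strand as a stem of 6 bases that starts with GG and ends with CC, with at least 5 of 6 pairs, around a loop of 4 bases of which at least 3 are C or T and at least 2 of the first 3 are T. It was found after the stop codon in 29 models. The most common form stood in 15 of them, the H2A gene HIST1H2AI among these, and the next most common stood in 5, the H4 gene HIST1H4J among these. Both lie in the 3′ UTR, on chromosome 6, and the capitals mark the loop.
HIST1H2AI stem-loop: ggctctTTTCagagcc
HIST1H4J stem-loop: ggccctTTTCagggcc
Of the 25 histone models with at least 100 bases after the stop codon, 21 held the stem-loop within those bases, against 0.329% of 18236 other protein-coding genes. The loops began 22 to 67 bases after the stop codon. A further 34 models end at the stop codon, so they cannot show a stem-loop, and 3 models have no coding region.

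Adenine-rich stretches were searched in the same models, up to the stem-loop where there was one, as the highest number of adenines in any 20 bases. The highest count belonged to HIST1H4C, an H4 gene on chromosome 6, with 18 of 20. The stretch lies in its 3′ UTR, begins 32 bases after the stop codon and closes the model of 435 bases. The coding regions of the H1 genes HIST1H1D, HIST1H1E and HIST1H1C, whose lysine-rich tails use adenine-rich codons, and the last coding bases of the H2A gene HIST2H2AC held 12 or 13 of 20. The H2A gene HIST1H2AJ is shown as a high-level gene whose model holds no more adenines than that of the median histone gene, 10 of 20. Its model ends at the stop codon, so bases after it were not searched. Each line below gives 30 bases, and the capitals mark the adenines of the 20-base window.
HIST1H4C, 3′ UTR: tgagaacttcAAAAAAcAAAAAcAAAAAAA
HIST1H1D, coding: accccgAAgAAAAgcAtcAAAAAgActcct
HIST1H1E, coding: gagccAAAAAAgcgAAAAgcccgAAaaagg
HIST1H1C, coding: gagcgctAAgAAAAcAccgAAgAAAgcgaa
HIST2H2AC, coding: accgaaagccAcAAAgccAAAAgcAAAtAA
HIST1H2AJ, coding: tgctgccAAAgAAAActgAgAgccAccaca
The other 72 histone genes reached at most 15 of 20. Within the first 51 bases after the stop codon, the length that the HIST1H4C model has, 0.0746% of 18760 other protein-coding genes held 18 or more adenines in 20. No stem-loop was found in the HIST1H4C model, which says only that these letters are not in its 51 bases.

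HIST1H4C was the highest histone gene in all 16 libraries, at 1317 to 4393 TPM (transcripts per 1000000, a level corrected for gene length). It made up 51 to 82.4% of the TPM of all 73 genes and ranked between 10 and 111 among all genes of a library. Its level was 2016 and 2083 TPM in the THP-1 controls and 1805 and 3009 after LPS. In U937 it was 2476 and 2169 in the controls and 4393 and 2471 after LPS. In Jurkat it was 3015 and 2883 in the controls and 2623 and 3383 after stimulation. Stimulated BJAB libraries held 2213 and 1351 TPM, and their controls 1329 and 1317. The BJAB controls and the second stimulated BJAB library were thus the lowest, and the first stimulated U937 library was the highest. By group mean the controls ran from BJAB (1323 ± 8.18, SD, n = 2) through THP-1 (2049.7 ± 47.2) and U937 (2323 ± 218) to Jurkat (2949 ± 93.1). THP-1 and U937 are neighbours in that order whose libraries lie close together, 2083 against 2169 TPM at the nearest.

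The plot of TPM by histone type shows what was left once HIST1H4C was set aside. The other 72 genes together gave 474 to 2810 TPM per library. The other 14 H4 genes together gave 36.4 to 163 TPM per library. All H1 genes gave 59.4 to 1363 TPM, all H2A genes 225 to 1141, all H2B genes 32.2 to 246 and all H3 genes 22.7 to 238. The sum over the 73 genes was 1845 to 6193 TPM, or 0.185 to 0.619% of a library. For comparison, 19 genes listed as replication-independent histone genes, a class whose messages generally carry a poly(A) tail, summed to 3626 to 15958 TPM. Among them H2AFZ alone, which encodes the variant H2A.Z, reached 2453 to 8184 TPM. RNAs that lack a tail, counted over small nuclear, nucleolar and similar RNA genes, summed to 138 to 334 TPM.

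**Figure D1:**
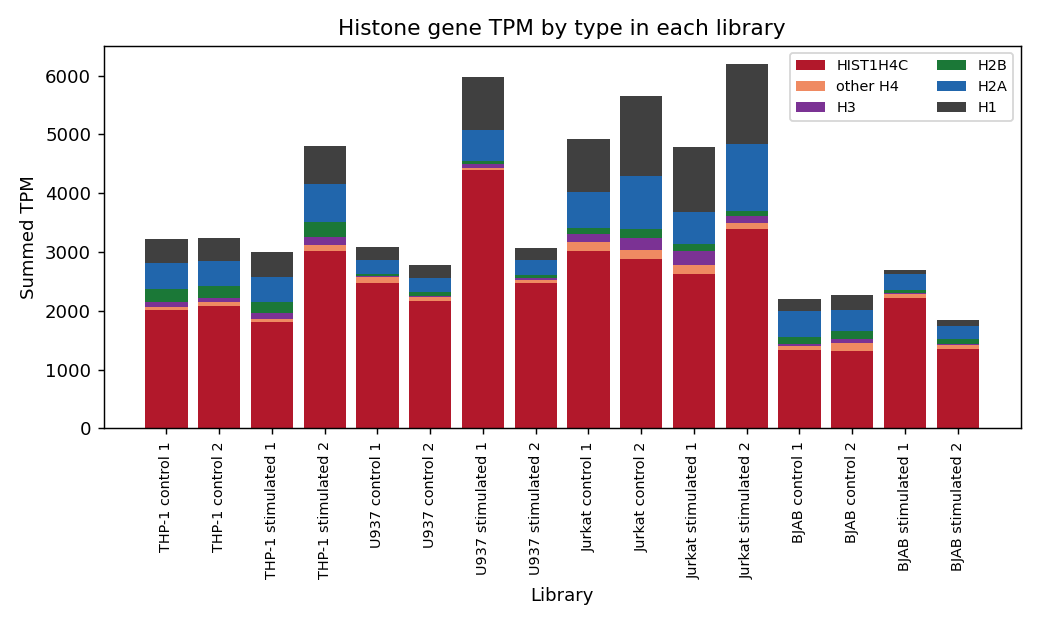
Summed TPM of the 73 histone genes in each of the 16 libraries, stacked by type, with HIST1H4C drawn apart from the other H4 genes. HIST1H4C fills 51 to 82.4% of each bar, and the first stimulated U937 library stands above the other U937 libraries.

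Ranked by mean TPM over the 16 libraries, HIST1H4C (2409) was followed by HIST1H1D (179), HIST1H1E (178), HIST1H2AJ (126), HIST1H1C (118), HIST1H2AM (111), HIST2H2AC (103), HIST1H2AI (80.7), HIST1H1B (72.6), HIST1H2BK (43.0), HIST1H3I (39.4) and HIST1H2AH (26.3). The first 12 thus hold 4 linker histone genes, 5 H2A genes, 1 H2B gene, 1 H3 gene and 1 H4 gene. In all, 39 of the 73 reached a mean of 5 TPM or more in a group. At the other end, 10 were listed at 0 in every library, and HIST3H3 and HIST1H3E were above 0 in 1 library each. The plot of adenine-rich stretches against level sets these levels beside the sequences. Of the 13 genes with 12 to 15 adenines in 20, 5 had a mean over 50 TPM, against 3 of the 59 with fewer than 12. Yet 3 of those 13 had a mean under 1 TPM, among them HIST1H1A, a linker histone gene with 13 of 20 at a mean of 0.0487 TPM. The 34 models that end at the stop codon, those of HIST1H2AJ and HIST1H2AM among them, could not be searched for adenines after it. This is a description over genes, which share libraries and base composition, and no test was made of it. The part that priming on such stretches has in the levels was not tested.

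**Figure D2:**
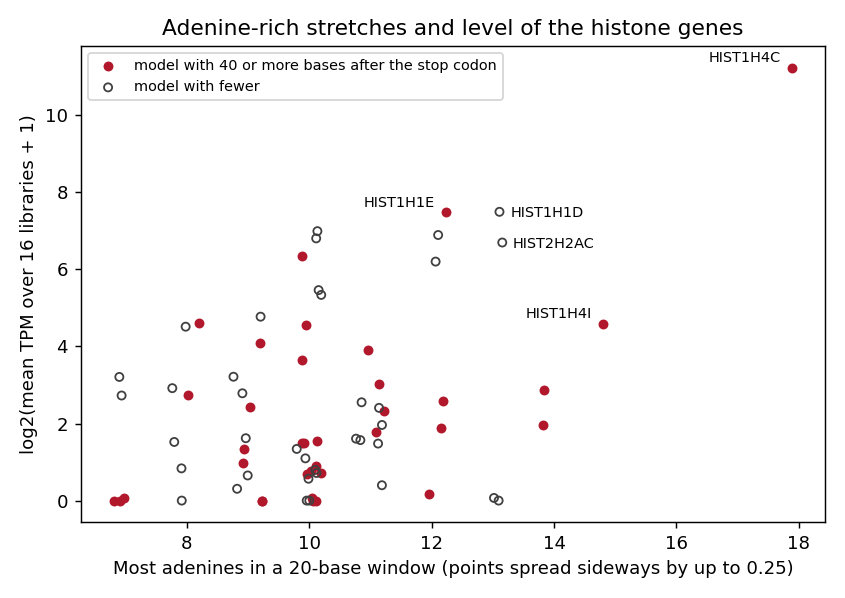
The highest number of adenines in any 20 bases of the transcript model (x, points spread sideways) against the mean level as log2(mean TPM + 1) (y) for the 73 histone genes. HIST1H4C, at 18 adenines and 2409 TPM, lies apart from all the others, while genes with 12 to 15 adenines cover levels from 0 to 179 TPM.

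Sequence shared with other transcripts limits what the levels of single genes mean, because the deposited values are described as unique alignments. Of the 10 genes at 0 everywhere, 7 share more than 95% of their 31-base windows with transcripts of another gene. These are HIST1H2AD and the pairs HIST2H2AA3 and HIST2H2AA4, HIST2H3A and HIST2H3C, and HIST2H4A and HIST2H4B. The remaining genes at 0, HIST1H2APS1, HIST1H2BA and HIST1H4G, are over 90% unique by the same measure. Of the genes above 0, HIST1H4K, HIST1H3D and HIST1H2AK are under 5% unique, so their values, and those of HIST1H4J (17.8% unique), HIST1H2AJ (14%), HIST1H2AM (12.9%) and HIST1H2BK (13.7%), are uncertain as to which gene the reads came from. HIST1H2AI (36.2% unique) and HIST2H2AC (49.4%) carry part of this uncertainty. HIST1H4C and HIST1H1D are 100% unique, and HIST1H1E and HIST1H1C are 99.0% and 99.2% unique.

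The untreated lines differed in which histone genes they showed. Differences are in log2(TPM + 1) between a line and the mean of the other 3, tested with limma over the 14398 genes with at least 1 TPM in at least 2 libraries, of which 58 are histone genes. In Jurkat 21 of the 58 were higher and 3 lower at an adjusted p under 0.05 (36.2% and 5.17%), against 22.0% and 16% of all tested genes. Of those 21, HIST1H2AA, HIST1H4B and HIST1H4D rest on at most 3 recovered reads in each Jurkat control. Under median-of-ratios scaling the Jurkat counts were 14 higher and 4 lower. The shares of all tested genes under that scaling are not given here, so an excess over them is not shown for it. In U937 1 was higher and 18 were lower (1.72% and 31%), against 15.1% and 20.8%. In THP-1 12 were higher and 3 lower (20.7% and 5.17%), against 17.6% and 17.3%. In BJAB 4 were higher and 10 lower (6.90% and 17.2%), against 14.5% and 25%. The shares of THP-1 and BJAB are thus near or under the background in each direction, except that the THP-1 share of higher genes, 20.7%, lies a little above it. These 4 comparisons share their control libraries. Without the first or the second Jurkat control the 24 calls in Jurkat became 14 and 12, without the first U937 control the 19 in U937 became 10, and without the first THP-1 control the 15 in THP-1 became 9. The median difference of the 58 genes was 0.75 in Jurkat, -0.73 in U937, 0.18 in THP-1 and -0.41 in BJAB, beside 0.14, -0.11, -0.08 and -0.15 over all tested genes. In bulk libraries fewer cells that express a gene and less of its RNA per cell cannot be told apart.

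**Figure D3:**
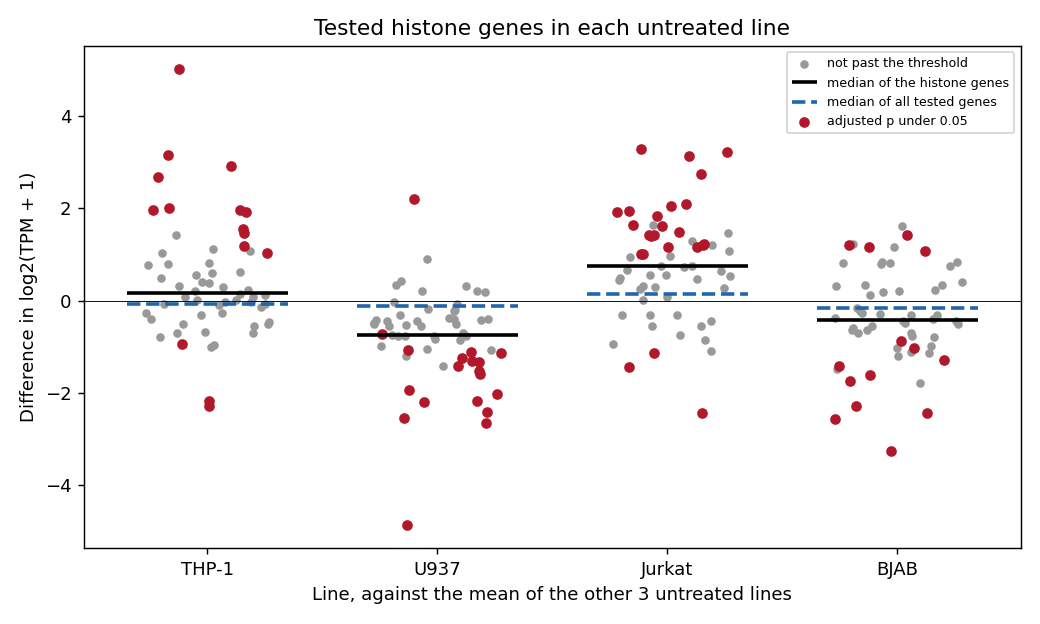
Difference in log2(TPM + 1) of the 58 tested histone genes between each untreated line and the mean of the other 3. Red points passed an adjusted p of 0.05, the black line is the median of the histone genes and the dashed blue line is the median of all tested genes. In Jurkat 21 red points lie above 0, and in U937 18 lie below it.

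All 4 tested linker histone genes were higher in Jurkat, where 22.0% of all tested genes were, and 2 of the 4 were lower in U937, where 20.8% were. HIST1H1D stood at 408 and 598 TPM in the Jurkat controls, 124 and 125 in THP-1, 60.5 and 49.5 in U937, and 18.9 and 31.5 in BJAB, so the controls of the 4 lines did not overlap. Its difference was 3.14 ± 0.30 (SE) in Jurkat, with a limma adjusted p of 5.79e-06, and -2.57 ± 0.30 in BJAB, with a limma adjusted p of 2.68e-05. HIST1H1E stood at 224 and 406 TPM in the Jurkat controls against 74.5 to 132 in the 6 other controls. HIST1H1C stood at 157 and 254 TPM in Jurkat against 36.9 to 83.1 elsewhere. HIST1H1B, at 8.79 and 17.5 TPM in U937, was below all other controls, which held 57.6 to 116 TPM. Its difference in U937 was -2.64 ± 0.51, with a limma adjusted p of 0.00175. HIST1H1B did not separate Jurkat from the rest: the Jurkat controls held 116 and 103 TPM and a BJAB control held 115, and its difference in Jurkat was 1.41 with a limma adjusted p of 0.0486.

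Of the H2A genes among the 12 highest, HIST1H2AJ held 132 and 111 TPM in the THP-1 controls, 29.2 and 31.5 in those of U937, 196 and 307 in those of Jurkat, and 83.3 and 53.0 in those of BJAB. After stimulation it held 138 and 183, 88.2 and 46.9, 151 and 340.5, and 77.6 and 50.3 TPM in the same order of lines. HIST1H2AI, with which HIST1H2AJ shares 84.6% of its windows, held 70.3 and 84.7, 15.9 and 18.6, 123 and 187, and 62.0 and 33.5 TPM in the controls. Both genes were thus lowest in the U937 controls and highest in those of Jurkat, without overlap. HIST1H2AM held 49.8 and 63.5 TPM in control THP-1 libraries, below 81.2 and 69.7 for U937, 114 and 106 for BJAB, and 135 and 181 for Jurkat. HIST2H2AC held 121 and 97.9, 55.0 and 75.6, 89.8 and 143, and 124 and 93.5 TPM in the same order, and the controls of THP-1, Jurkat and BJAB overlapped. HIST1H2AH ranged from 11.7 to 43.1 TPM over the 16 libraries. The H2B gene HIST1H2BK held 71.6 and 71.8 TPM in the THP-1 controls and 69.0 and 88.9 in those of BJAB, against 12.6 and 32.5 in U937 and 24.5 and 25.8 in Jurkat, with no overlap between these pairs of lines.

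Among the H3 genes, HIST1H3I was lowest in U937 and highest in Jurkat, with no overlap of their libraries. It was listed at 0 and 1.26 TPM in the U937 controls, 27.6 and 27.0 in THP-1, 21.5 and 35.6 in BJAB, and 84 and 125 in Jurkat. Its difference was -4.87 ± 0.48 in U937 (limma adjusted p 1.13e-05) and 3.28 ± 0.48 in Jurkat (limma adjusted p 0.000211). HIST1H3G held 10.7 and 23.0 TPM in the Jurkat controls, 2.57 and 1.10 in THP-1, 0 and 3.36 in BJAB and 0 in both U937 controls. Its difference in Jurkat was 3.23 ± 0.53, with a limma adjusted p of 0.000485. HIST1H3C divided the lines another way: it was above 0 in all 8 monocytic libraries, at 9.82 to 40.1 TPM, and at 0 in all 8 Jurkat and BJAB libraries. The THP-1 controls held 13.5 ± 4.00 TPM (SD, n = 2), at least 5.95-fold higher than the level that 3 reads in a Jurkat control would give and at least 6.04-fold higher than that in BJAB. The U937 controls held 10.1 ± 0.464 TPM, at least 4.47-fold and 4.54-fold higher by the same measure. These bounds cover counting error only. HIST1H3C encodes the same kind of core protein as HIST1H3I, yet in Jurkat it was at 0 in the libraries where HIST1H3I was highest.

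In THP-1, 7 of the 19 tested H2B genes were higher, where 17.6% of all tested genes were, and none was lower. HIST1H2BH, an H2B gene, stood at 82.5 and 64.3 TPM in the THP-1 controls and at 62.8 and 118 after LPS. In the other lines it was 6.34 to 7.04 TPM in Jurkat, 0 to 1.91 in U937 and 0 in all 4 BJAB libraries, so THP-1 did not overlap any of them. Its difference in untreated THP-1 was 5.02 ± 0.32, with a limma adjusted p of 2.13e-07. The THP-1 controls (73.4 ± 12.9 TPM, SD, n = 2) were at least 30.4-fold higher than the level of 3 reads in a BJAB control. HIST2H3D, an H3 gene of which 13.6% of windows are unique, held 22.3 and 13.5 TPM in the THP-1 controls. It held at most 2.63 in the other 6 controls, a difference of 3.15 ± 0.44 (limma adjusted p 0.000142). HIST2H2BA, an H2B pseudogene of which 27.4% of windows are unique, held 6.40 and 8.01 TPM in THP-1 and 0 to 0.664 in the other controls (difference 2.91 ± 0.26, limma adjusted p 4.17e-06). THP-1 was the only line that carried dCas9-KRAB, and line and construct cannot be told apart.

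In U937, 9 of the 19 tested H2B genes were lower, where 20.8% of all tested genes were. HIST2H2BC, an H2B pseudogene with 19.6% unique windows, was at 0.918 and 0 TPM in the U937 controls and at 3.83 to 11.1 in the other 6 controls, a difference of -2.55 ± 0.37 (limma adjusted p 0.000205). In BJAB the largest differences were lower levels of HIST1H2BH (-3.25 ± 0.32, limma adjusted p 6.29e-06), HIST1H1D (given above) and HIST1H3C (-2.44 ± 0.35, limma adjusted p 0.000147). Neither HIST1H2BH nor HIST1H3C was low in BJAB alone: HIST1H2BH was at 0 and 1.41 TPM in the U937 controls, and HIST1H3C was at 0 in Jurkat too, with the same difference of -2.44. HIST1H4C was also lower in BJAB, by -0.86 ± 0.25 (limma adjusted p 0.0173). Its limma adjusted p rose to 0.149 when libraries were scaled by the median of ratios, to 0.0742 in limma voom on recovered reads and to at most 0.101 without either BJAB control. In Jurkat HIST1H4C lay 0.68 ± 0.25 above the mean of the others, with a limma adjusted p of 0.0551. That adjusted p ranged from 9.64e-05 to 0.417 over 24 alternatives and passed the threshold in 8 of them. The copies HIST1H4J and HIST1H4K, both H4 genes, cannot be separated well by sequence and were both lower in THP-1, by -2.28 and -2.17. The THP-1 controls held 2.53 and 9.41 TPM of HIST1H4J and 2.54 and 11.7 of HIST1H4K, against 10.1 to 52.1 and 14.4 to 42.6 in the other controls.

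**Figure D4:**
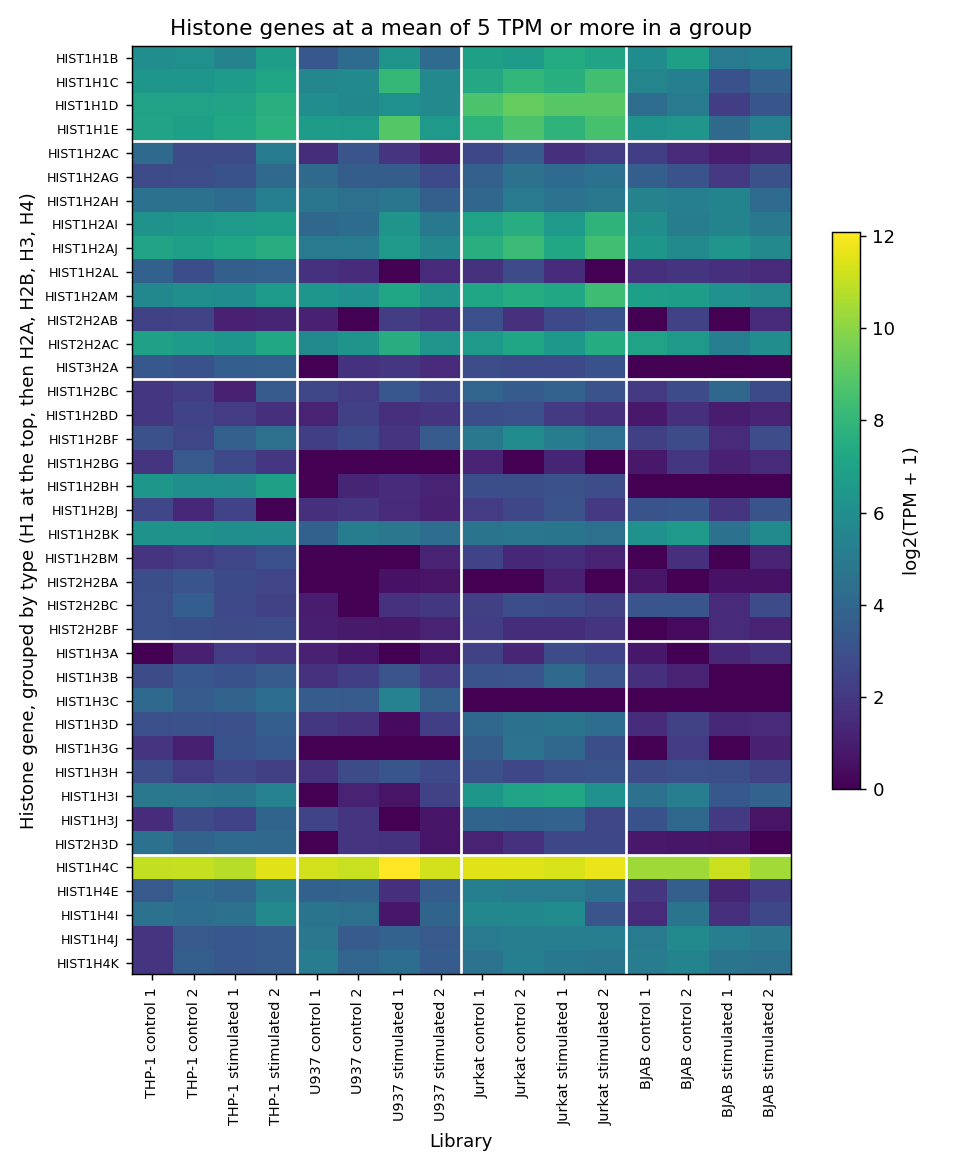
Level, as log2(TPM + 1), of the 39 histone genes at a mean of 5 TPM or more in a group (rows, by type) in the 16 libraries (columns, by line). HIST1H4C is the brightest row throughout, HIST1H2BH is highest in the 4 THP-1 libraries, and HIST1H3C is at 0 in every Jurkat and BJAB library.

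Genes that act on histone RNA or with it gave the following counts in the same comparisons. Of the 30 S phase and replication genes, 6 were higher and 1 lower in Jurkat, with a median of 0.55, and 1 was higher and 6 lower in BJAB, with a median of -0.39. The 6 in Jurkat are 20% of the list beside 22.0% of all tested genes, and the 6 in BJAB are 20% beside 25%, so neither share exceeds the background. Among them TYMS, which makes thymidylate, stood at 359 and 365 TPM in the Jurkat controls and at 28.3 and 42.7 in the BJAB controls. In U937, where 18 histone genes were lower, 4 of the 30 were higher and 2 lower, with a median of -0.14. Of the 25 tested genes for histone RNA processing and transcription, 2 were higher and 1 lower in Jurkat (8% and 4%), under the 22.0% and 16% of all tested genes. One of the higher ones, NPAT, which switches on clustered histone genes, differed by 1.35 ± 0.19 in Jurkat (limma adjusted p 0.000142) and by -1.10 ± 0.19 in U937 (limma adjusted p 0.000774). SLBP, the stem-loop binding protein, had limma adjusted p values of 0.302 to 0.982 in the 4 untreated comparisons. Of the 11 tested replication-independent histone genes, H1F0, a linker variant, was at 172 and 147 TPM in the THP-1 controls and at 0 in all BJAB libraries. The part of these genes in the histone levels was not tested. A list of 11 genes reported elsewhere as polyadenylated in non-dividing cells, such as HIST1H2BK and HIST2H2BE, summed to 52.4 to 400.4 TPM per library, well under HIST1H4C alone.

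In U937 and BJAB the first stimulated library stood apart from the second: the SD of the log2 differences between the 2 libraries was 0.89 and 0.96, against 0.35 to 0.46 in the other groups. After 4 hours of stimulation few histone genes differed from control. None of the 58 passed in THP-1, U937 or Jurkat by limma, where 0.167%, 0.0278% and 4.87% of all tested genes did. At an unadjusted limma p under 0.05 there were 7, 8 and 9 (12.1%, 13.8% and 15.5%), against 3.63%, 15.1% and 13.1% of all tested genes. Limma voom on recovered reads called 0 in each as well. In BJAB 1 was higher and 2 were lower (1.72% and 3.45%), against 1.63% and 4.76% of all tested genes, so neither share exceeds the background by more than a fraction of a percent. Left out in turn, 1 library changed the BJAB count to as few as 0 and as many as 7. At an unadjusted p under 0.05 the BJAB count was 14, with 12 of them lower. That is 24.1% of the 58, beside 24.2% of all tested genes. Of the 58 differences in BJAB, 42 were below 0, 6 were above it and 10 were exactly 0, the last because the genes were at 0 in all 4 BJAB libraries. The median of the 58 was -0.45 beside -0.14 over all genes. The medians were 0.27 in THP-1, 0.08 in U937 and 0.01 in Jurkat, beside -0.06, -0.25 and -0.03. The difference of HIST1H4C was 0.19 in THP-1, 0.51 in U937, 0.01 in Jurkat and 0.39 in BJAB, each with an SE of 0.31 and a limma adjusted p of 1, 0.381, 1 and 0.495 in that order. For the difference between the LPS responses of THP-1 and U937, limma called none of the 58, against 0.0486% of all tested genes. Here 8 had an unadjusted limma p under 0.05 (13.8%, against 6.19% of all tested genes), and voom called 0.

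**Figure D5:**
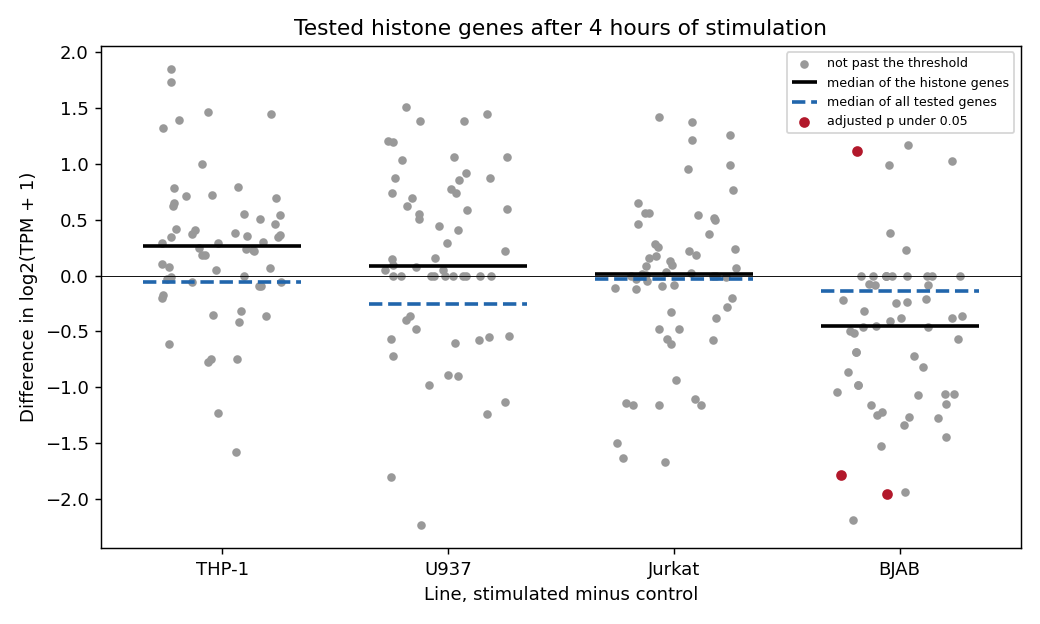
Change in log2(TPM + 1) of the 58 tested histone genes after stimulation in each line. The 3 red points, all in BJAB, passed an adjusted p of 0.05. The median of the histone genes in BJAB (black line) is -0.45, below the median of all tested genes (dashed blue line) at -0.14.

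In stimulated BJAB the linker histone HIST1H1D fell from 18.9 and 31.5 TPM to 3.63 and 8.32 TPM, so the groups did not overlap. The change was -1.95 ± 0.37 with a limma adjusted p of 0.00944. The H2A gene HIST1H2AE fell from 3.03 and 3.34 TPM to 0 and 0.478 TPM, a change of -1.78 ± 0.44 (limma adjusted p 0.0349), which rests on 5 and 6 reads against 0 and 1. The H2B gene HIST2H2BF rose from 0 and 0.294 TPM to 1.68 and 1.26 TPM, a change of 1.11 ± 0.25 (limma adjusted p 0.0235), which rests on 0 and 1 reads against 7 and 5. None of the 3 calls held when the BJAB libraries were fitted alone (adjusted p 0.322, 0.244 and 0.308), without the second BJAB control (adjusted p 0.115, 0.203 and 0.0734) and without the first stimulated BJAB library (adjusted p 0.0658, 0.255 and 0.159). Without the first BJAB control HIST1H2AE and HIST2H2BF had a limma adjusted p of 0.135 and 0.168. The 30 S phase genes summed to 2490 TPM in the first stimulated BJAB library, 4251 in the second, and 4476 and 4406 in the controls, and their part in these changes was not tested.

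By type, 1 of the 4 tested H1 genes and 1 of the 14 tested H2A genes were called lower in stimulated BJAB, beside 4.76% of all tested genes. The differences of all 4 H1 genes were below 0. Of the 14 H2A differences 12 were below 0, and those of HIST3H2A and HIST1H2AA were exactly 0 because neither gene was detected in BJAB. Such uniform signs were not particular to BJAB. All 4 H1 differences were above 0 in stimulated THP-1 and U937, as were all 11 H4 differences in THP-1. Of the 19 H2B differences in U937, 15 were above 0 and 4 were exactly 0. None of these genes was called there, and the 2 LPS libraries of U937 differed, as described below.

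The other linker histone genes were also at lower levels in stimulated BJAB without passing the test. HIST1H1E went from 74.5 and 77.3 TPM to 17.3 and 38.1, with a limma adjusted p of 0.178. HIST1H1C went from 43.9 and 36.9 TPM to 7.35 and 12.9, with a limma adjusted p of 0.0845. As a sum, H1 went from 228 ± 46.8 TPM (SD, n = 2) to 77.8 ± 26.0, while HIST1H4C went from 1323 ± 8.18 to 1782 ± 609.9 TPM. Of all histone TPM, H1 was 8.89 and 11.5% in control BJAB libraries but 2.21 and 5.21% in stimulated ones. In the same comparison CCNE1, a cyclin that drives entry into S phase, went from 8.21 and 4.34 TPM to 0.655 and 0.827 (limma adjusted p 0.0102). CCNE1 was the only 1 of the 30 S phase genes to pass. POU2AF1, a B cell coactivator of octamer-binding factors, went from 113 and 139 TPM to 13.4 and 41.6 (limma adjusted p 0.00491). Of the 25 tested genes for histone RNA processing and transcription, 2 were lower (8%), beside 4.76% of all tested genes. In stimulated Jurkat, where no histone gene was called, POU2AF1 rose from 5.23 and 4.81 TPM to 43.3 and 34.0 (limma adjusted p 0.00131). The part of CCNE1 and POU2AF1 in the histone levels was not tested. In BJAB H2AFX, whose variant histone marks DNA breaks, went from 26.0 and 49.5 TPM to 3.54 and 14.2 with stimulation (limma adjusted p 0.0489). H2AFX was the 1 call among the 11 tested replication-independent histone genes, whose median difference was 0.42. Summed, these genes gave 15958 and 7854 TPM in stimulated BJAB against 7047 and 5951 without stimulation, and H3F3B, which encodes H3.3, differed by 1.39 with a limma adjusted p of 0.0519.

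The 2 LPS libraries of U937 differed from each other. Of the 58 tested genes 25 were higher in the first, 20 were lower and 13 were at 0 in both. The first held 485 TPM of HIST1H1E against 89.7 in the second, 268 against 51.6 of HIST1H1C, 76.7 against 17.8 of HIST1H1B, 76.8 against 28.2 of HIST1H2AI and 40.1 against 11.7 of HIST1H3C. It held less of other genes: 0.731 against 13.7 TPM of HIST1H4I, 2.15 against 10.5 of HIST1H4E and 2.52 against 9.83 of HIST1H2BF. Of HIST1H1E the controls held 103 and 96.4 TPM, and of HIST1H4I 24.5 and 21.1. In the first LPS library the 30 S phase genes summed to 2468 TPM, against 4601 in the second and 5140 and 5247 in the controls, and SLBP was at 77.8 TPM against 283 to 398. Whether any histone gene was called in U937 depended on which of the 2 was left out, and such a fit holds 1 stimulated library only. In THP-1 the second LPS library was the higher one, at 4801 TPM over all 73 genes against 3007 in the first and 3215 and 3235 in the controls. In Jurkat no gene of the 12 highest separated stimulated from control libraries by the test: HIST1H2AM, for example, held 135 and 181 TPM in the controls and 154 and 319.8 after stimulation.

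Depth and labels were checked over all libraries. Each held 4125221 to 8431295 recovered reads, of which 2464 to 10184 fell on the histone genes, and 36 to 55 of the 73 were above 0. By the mean of the controls, each of 6 T cell markers was highest in Jurkat, each of 6 B cell markers in BJAB and each of 6 monocytic markers in THP-1 or U937, but not all were absent elsewhere. CD3D was at a mean of 2216 TPM in Jurkat and CD79B at 3043 TPM in BJAB. FCER1G averaged 3084 TPM in THP-1 controls and 553 in those of U937. The myeloid gene MPO was low in both, at 1.78 and 0.332 TPM. In BJAB the monocytic markers CD33 and SPI1 stood at 82.1 and 29.4 TPM, the latter above its 20.2 in U937, and the T cell kinase LCK at 61.9. In Jurkat the B cell markers CD79A and BLK stood at 148 and 23.8 TPM.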

How the data were processed

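RNA was measured in 16 libraries, 2 for each of 8 groups of line and treatment. The authors deposited 1 table per library in TPM (transcripts per 1000000), described as from unique alignments. Per the submitters' processing notes TopHat2 and the human build hg19 were used. Its version, the counter and the annotation: not given in the sources used here. Each library sums to 1000000 TPM.

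Values were tested as log2(TPM + 1) with limma 3.58.1 (R 4.3.3). The model held a mean for each of the 8 groups and a mean-variance trend, and covered the 14398 genes that reached 1 TPM in 2 or more libraries (8 residual degrees of freedom, prior 3.18). Tests were two-sided and adjusted by Benjamini-Hochberg over these genes at a threshold of 0.05. On this scale changes of low genes are understated. Of the 73 histone genes 58 were tested and 15 were not.

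TPM values rise in steps worth 1 read, and from these whole reads were derived (tolerance 0.001) for 17860 of 19092 genes above 0 (93.5%) and for 61 histone genes. Depth by this count was 4125221 to 8431295 reads per library, and a floor of 3 reads was set from it. Reads are not independent molecules, so floors cover counting error only. Counts of reads on HIST1H4A, HIST1H2BB and HIST1H2AA may be understated by a constant factor. The fit and the recovery were tested on simulated data.

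Transcript models came from GENCODE 29 on GRCh38; no genome of build hg19 was used and no coordinates are given. Unique bases were counted as 31-base windows found on neither strand of any transcript of another gene. Values by library are given mainly for the 12 genes with the highest mean TPM, up to 6 genes with the largest change past the threshold per stimulation, and 3 per untreated line; other genes at a mean of 5 TPM or more in a group are named with values or ranges, and up to 4 genes of a context list. HIST1H1A, HIST3H3, HIST1H3E, HIST1H2AA, HIST1H4B, HIST1H4D, HIST1H2AK, HIST1H2BA, HIST1H4G, HIST1H2APS1 and HIST2H2BE fall outside this rule or below its level and were named after their values were seen. The genes and lists were chosen with earlier results of these data known. Alternatives were pseudocounts of 0.1 and 5, no filter, median-of-ratios scaling, a replicate block, the compared libraries alone, limma voom on recovered reads, omission of the first stimulated library of both U937 and BJAB, and each library left out in turn.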

Additional observations from a re-analysis of the deposited data

How the results depend on the processing

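The 12 differences between untreated lines described as the 3 largest of each line kept their direction and call in all 24 alternatives run for each. HIST1H1D in stimulated BJAB lost its call in 3 of 24, HIST2H2BF in 7 and HIST1H2AE in 12, and none of the 3 changed sign.

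Histone genes called by stimulation changed as follows. With a pseudocount of 5, BJAB had 1. With the replicate block, THP-1 had 1, Jurkat 1 and BJAB 1. Control and stimulated libraries of a line share replicate numbers, but their deviations correlated by 0.01 in THP-1, -0.04 in U937, 0.02 in Jurkat and 0.14 in BJAB, so the numbers were not taken to pair them. The other 6 counts under the block stayed within 1.5 times. Jurkat had 2 when the first stimulated library of both U937 and BJAB was omitted. With the compared libraries alone, Jurkat had 6, BJAB 0 and untreated BJAB 24. Fewer libraries entered the estimate of spread in these fits, and its part in the counts was not tested. In leave-one-out fits the counts ran from 0 to 1 in THP-1, 0 to 11 in U937, 0 to 2 in Jurkat, 0 to 7 in BJAB and 0 to 6 for the LPS difference. They ran from 9 to 16 in untreated THP-1, 10 to 21 in untreated U937, 12 to 27 in untreated Jurkat and 10 to 19 in untreated BJAB. The lowest counts came without the first control of THP-1 (9), the first of U937 (10) and the second of Jurkat (12; 14 without the first). In such fits the spread of the single library left is taken from the other groups. The shares of all tested genes called in them are not given here, so these counts are not a result about histone genes. The 7 in BJAB and the 11 and 6 with U937 came without the second stimulated library of that line. BJAB had 6 without either stimulated U937 library, 1 without its first control and 0 without its second or its first stimulated library. The cause was not tested.

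Without HIST1H4C the summed TPM of the histone genes was 1175 (THP-1), 605 (U937), 2338 (Jurkat) and 907 (BJAB) in controls, and 1497, 1089.8, 2483 and 485 after stimulation. With HIST1H4C included, the sum under median-of-ratios scaling was 3130.3 TPM in control THP-1, beside 3225 as deposited. In U937 it was 2699 in control and 6681 in stimulated libraries, beside 2928 and 4522. In control Jurkat it was 4363 beside 5287, and in control BJAB 2086 beside 2230. That scaling moved the median of all genes from -0.25 to 0 in stimulated U937, from -0.14 to 0 in stimulated BJAB, from 0.14 to -0.02 in untreated Jurkat and from 0.24 to 0 in the LPS difference. The histone medians became 0.40, -0.33, 0.57 and -0.34, with the same sign as before.

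Depth limits the low genes: 1 read on a gene of 1000 bases was worth 0.256 to 0.534 TPM, so calls on genes with a few reads rest on steps of that size.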
